A study of Mus musculus with 4 samples.

Results

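The LSm proteins that hold U6 and U7 RNAs, together with LSm1, which takes the place of LSm8 in the cytoplasm, are encoded by 10 genes: Lsm1, Lsm2, Lsm3, Lsm4, Lsm5, Lsm6, Lsm7, Lsm8, Lsm10 and Lsm11. They were chosen by gene name, with earlier results of these data known, and all 10 had a row of their own among the 37718 gene rows. Together they held 30 of the 207562 introns, and 97 exon segments and 47 splice junctions among the 605144 exon segments and junctions of the series. Some older annotations give the name Naa38 to Lsm8; here Lsm8 (ENSMUSG00000044155) and Naa38 were separate rows.

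RNA was sequenced from germ cells of juvenile mouse testes at 20 days post partum (dpp), in 2 samples from Tdrd6-/- males, which lack the Tudor domain protein TDRD6, and 2 from Tdrd6+/- males, the heterozygous controls. Males of both genotypes carried human CD4 (hCD4) expressed from the endogenous Tdrd6 promoter, and hCD4+ cells were captured with antibody-coupled magnetic beads, each sample from a pool of at least 4 mice. The capture enriches diplotene spermatocytes, the cells late in meiotic prophase I, but the preparations were not pure. Total RNA was depleted of ribosomal RNA, so that unspliced transcripts were sequenced along with spliced ones.

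LSm proteins share the fold of the Sm proteins and close into rings around single-stranded RNA. In the nucleus, the ring of LSm2 to LSm8 holds the uridine-rich 3′ end of U6 snRNA, the catalytic RNA of the spliceosome, and assists its pairing with U4. In the cytoplasm LSm1 takes the place of LSm8, and that ring binds deadenylated mRNAs and promotes their decapping and decay. LSm10 and LSm11 replace SmD1 and SmD2 in the ring of U7 snRNA, which guides the cleavage of histone pre-mRNAs at their 3′ ends.

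Gene counts came to 26454326 to 31388750 per sample, and counts on introns to 9603669 to 13937818. The share of fragments that fell on introns was 30.95% and 27.11% in the Tdrd6+/- samples against 27.43% and 21.94% in the Tdrd6-/- samples, so that Tdrd6-/- replicate 2 had the lowest intronic share. Tdrd6 itself had 33220 and 39322 counts in the Tdrd6+/- samples against 359 and 400 in the Tdrd6-/- samples, as labelled. The 8 markers of late meiotic prophase were abundant in all samples (summed 5280 to 5632 counts scaled to 1000000 per sample, CPM), with Sycp1 called higher and Piwil1 called lower in Tdrd6-/- samples. Of the 5 round spermatid markers, Acrv1 was called higher in Tdrd6-/- samples (2.94 and 5.71 CPM against 9.39 and 7.53 CPM), while Tnp1, Tnp2, Prm1 and Prm2 had 0 to 10 counts in each sample. Summed markers of spermatogonia were 15.16 and 16.37 CPM in Tdrd6+/- samples and 18.85 and 19.87 CPM in Tdrd6-/- samples. Those of Sertoli cells came to 25.9 to 34.28 CPM and of Leydig cells to 15.96 to 19.67 CPM. The Leydig sum includes 7.94 to 14.07 CPM of a row that merges Insl3 with Jak3. Macrophage markers came to 2.625 to 5.249 CPM and those of peritubular cells to 2.635 to 3.605 CPM, with no gene of these 5 lists called. The part of these differences in the values below was not tested, and in sorted bulk samples fewer cells of a type and less RNA per cell cannot be told apart.

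Transcript levels of the 10 genes were spread widely, also among the subunits of one ring. Levels were compared as CPM per kb of annotated exon. Lsm4 stood highest at 45.07 ± 6.19 CPM per kb (SD, n = 4 samples), followed by Lsm3 at 32.33 ± 5.10 and Lsm2 at 25.76 ± 1.24. Lsm10 of the U7 ring came next at 14.43 ± 1.79, then Lsm1 of the cytoplasmic ring at 7.465 ± 0.474, and Lsm8, its nuclear counterpart, at 5.122 ± 0.970. Lsm6 (4.454 ± 0.655), Lsm5 (3.045 ± 0.156), Lsm7 (2.063 ± 0.592) and Lsm11 (0.6453 ± 0.105) closed the order. The ranges of neighbours in this order did not overlap except for Lsm8 and Lsm6, although Lsm8 was above Lsm6 within each of the 4 samples. Among the 18816 genes ranked, Lsm4 was at place 1441 and Lsm11 at place 12502.

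**Figure D1:**
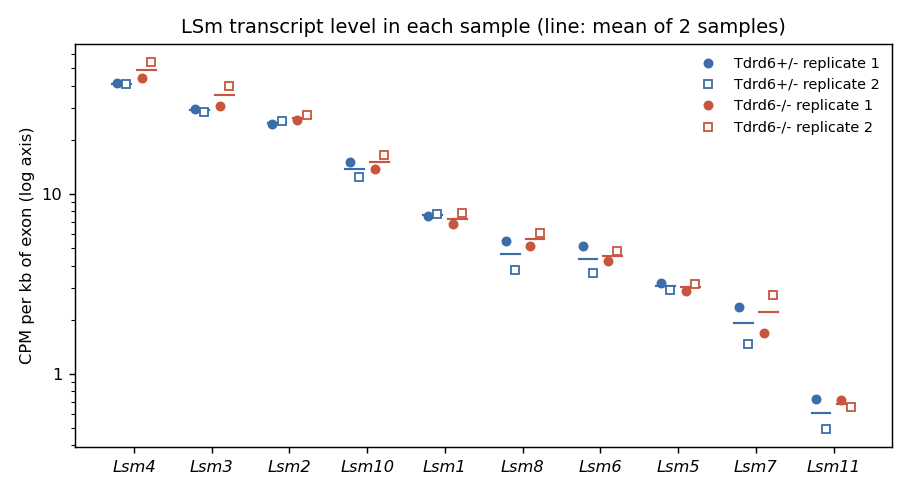
Transcript level of each LSm gene in CPM per kb of exon (log axis) for the 2 Tdrd6+/- and 2 Tdrd6-/- samples, with a line at the mean of each genotype. Lsm4, Lsm3 and Lsm2 lie highest and Lsm11 lowest, and among neighbours in the order only the ranges of Lsm8 and Lsm6 overlap.

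The order depended on the exon length that was set against the counts. Without a length correction Lsm2 led at 81.19 CPM, ahead of Lsm4 at 46.78 and Lsm3 at 41.87, and Lsm7 was last at 0.9653. Junction counts, which need no exon length, also put Lsm2 first: the median of its 3 strongest junctions averaged 516 counts per sample, against 274.2 for Lsm4, 242.5 for Lsm3, 145 for Lsm8, 108 for Lsm6, 88.75 for Lsm1, 25.5 for Lsm5, 18.75 for Lsm10, 9.25 for Lsm11 and 3.875 for Lsm7. Lsm10, which followed Lsm2 by CPM per kb, was below Lsm8, Lsm6 and Lsm1 by junction counts. Lsm10 has only 2 annotated junctions, and the third of Lsm7 (8 counts in all) was left out, so their values are means of 2 junctions. The 2 junctions of Lsm10 are alternatives that share one acceptor, with 42 and 108 counts in all, so its place beside Lsm5 is not settled. The exons of Lsm2 sum to 3.152 kb in the annotation, of which long stretches occur only in transcripts with a retained intron. The same holds for Lsm8, whose 4.108 kb include such stretches of 862, 741 and 1698 bp, while Lsm1 (2.663 kb) has none. Lsm8, below Lsm1 by CPM per kb, was above it by CPM (21.04 against 19.88) and by junction counts. Which of the 2 is the higher is therefore not settled.

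No LSm gene passed the test of expression between genotypes with calls made below 0.1 on the adjusted p (the false discovery rate, FDR), where 4.80% of the 16555 genes tested were called, 1.02% as higher and 3.78% as lower in Tdrd6-/- samples (edgeR quasi-likelihood test, Benjamini-Hochberg adjustment over all genes tested). Log2 fold changes of the members ran from -0.07 for Lsm1 to 0.28 for Lsm8, with a median of 0.16 beside 0.01 for all genes tested, and 8 of 10 were positive beside 51.7% of all genes. That median depended on single samples: it was -0.01 without Tdrd6+/- replicate 2, where Lsm6, Lsm7 and Lsm11 turned negative, 0.03 without Tdrd6-/- replicate 2 and 0.30 without Tdrd6+/- replicate 1. The 95% confidence interval lay within a 2-fold change in either direction for 9 of the 10 genes. The exception was Lsm7, whose interval on the log2 scale ran from -0.64 to 1.07. In 3 genes, Lsm2, Lsm3 and Lsm4, both Tdrd6-/- samples lay above both Tdrd6+/- samples, as did 20.1% of all genes tested. With 2 samples against 2 an exact permutation test of a single gene cannot go below p = 0.33, and the p-values measure the spread between these 4 pools only.

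**Figure D2:**
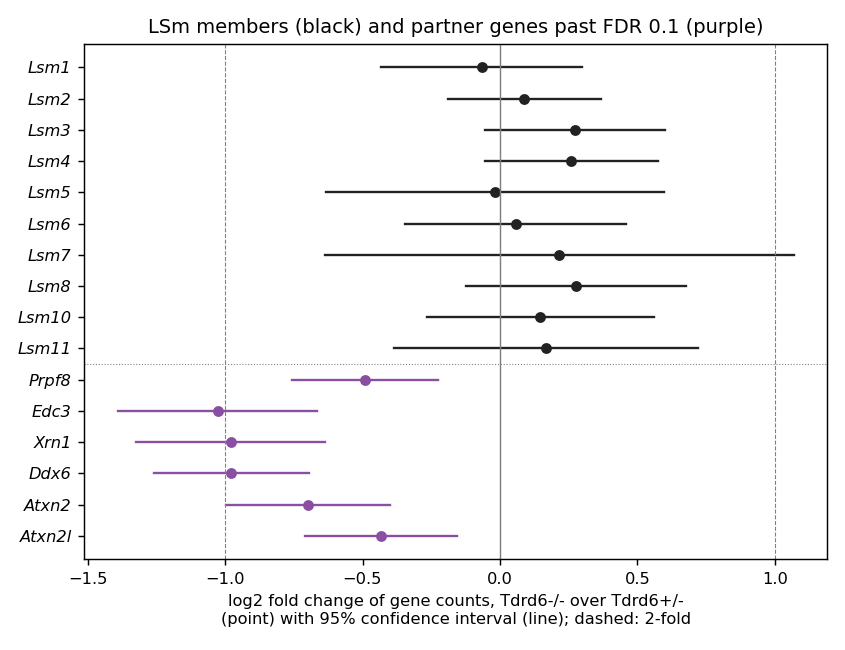
Log2 fold change of gene counts, Tdrd6-/- over Tdrd6+/- (points), with 95% confidence intervals (lines), for the 10 LSm genes in black and, in purple, the 6 genes of the partner lists that passed FDR 0.1. The intervals of all LSm genes cover 0, and the purple genes lie between -0.43 and -1.03.

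Among the subunits common to the U6 ring and the mRNA decay ring, Lsm2, Lsm3 and Lsm4 carried the most counts. Lsm4 (ENSMUSG00000031848, chromosome 8, positions 70673248 to 70678752 of mm10, plus strand), whose protein ends in an arginine-glycine-rich tail, had 42.8 and 42.3 CPM in the Tdrd6+/- samples against 45.8 and 56.1 CPM in the Tdrd6-/- samples. Tdrd6-/- replicate 2 was the highest by a clear margin, and the genotypes did not overlap. The log2 fold change was 0.26 ± 0.152 (SE; adjusted p = 0.485). Lsm3 (chromosome 6, 91515928 to 91522625) showed the same arrangement, with 38.7 and 37.2 CPM against 40.0 and 51.6 CPM and a log2 fold change of 0.27 ± 0.158 (adjusted p = 0.480). A transcript annotated on the same strand, AC161456.1, shares 174 bp of exon with Lsm3, and reads there cannot be assigned to one or the other. Lsm2 (chromosome 17, 34981862 to 34985891) varied least, with 77.1 and 80.3 CPM against 80.9 and 86.5 CPM and a log2 fold change of 0.09 ± 0.134 (adjusted p = 0.854).

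Lsm6, Lsm5 and Lsm7 complete the common part of both rings. Lsm6 (chromosome 8, 78804865 to 78821140, minus strand) had 20.8 and 14.8 CPM in Tdrd6+/- samples and 17.3 and 19.7 CPM in Tdrd6-/- samples, so that the Tdrd6-/- values lay between the controls (log2 fold change 0.06 ± 0.194). Lsm5 (chromosome 6, 56701063 to 56704710, minus strand) was low and even, with 65 and 63 counts against 71 and 78 (log2 fold change -0.02 ± 0.297). Lsm7 (chromosome 10, 80852821 to 80855209, minus strand) was the sparsest of all, with 29 and 19 counts in Tdrd6+/- samples and 25 and 41 in Tdrd6-/- samples. Its log2 fold change of 0.22 ± 0.411 was not distinguishable from 0 at this depth, and the interval does not exclude a doubling.

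Lsm8 and Lsm1 are the subunits that tell the nuclear ring from the cytoplasmic one. Lsm8 (chromosome 6, 18848579 to 18855751) had 22.5 and 15.5 CPM in Tdrd6+/- samples and 21.2 and 24.9 CPM in Tdrd6-/- samples. Tdrd6+/- replicate 2 was the lowest, and the genotypes overlapped. The log2 fold change of 0.28 ± 0.193 (adjusted p = 0.590) became 0.57 (adjusted p = 0.0942) without Tdrd6+/- replicate 1, the only single-sample omission under which a member was called, and 0.04 (adjusted p = 0.944) without Tdrd6+/- replicate 2. Lsm1 (chromosome 8, 25785288 to 25803975) had 20.0 and 20.7 CPM against 18.1 and 20.8 CPM, with a log2 fold change of -0.07 ± 0.177 (adjusted p = 0.919).

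The U7-specific genes did not separate the genotypes either. Lsm10 (chromosome 4, 126096623 to 126098584) had 14.2 and 11.7 CPM in Tdrd6+/- samples and 12.97 and 15.6 CPM in Tdrd6-/- samples (log2 fold change 0.15 ± 0.199). Lsm11 (chromosome 11, 45928269 to 45944935, minus strand), whose N-terminal part recruits the histone cleavage machinery, had 122 and 89 counts against 146 and 134 counts, or 4.66 and 3.20 CPM against 4.62 and 4.19 CPM (log2 fold change 0.17 ± 0.266). The genotypes overlapped in CPM for both genes.

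The genes that work with these rings were described as 4 lists, drawn up with earlier results of these data known. Of 16 genes around U6 and the tri-snRNP, 1 was called lower and none higher, beside 3.78% and 1.02% of all genes, with a median log2 fold change of -0.05. It was Prpf8, the protein at the catalytic centre of the spliceosome, with 524 and 559 CPM in Tdrd6+/- samples against 399.7 and 370.2 CPM in Tdrd6-/- samples (log2 fold change -0.49 ± 0.128, adjusted p = 0.0356). Its call was lost when either Tdrd6-/- sample was left out (adjusted p = 0.129 without replicate 1 and 0.51 without replicate 2) and when no filter on low counts was set (0.25). Of 16 genes of the U7 particle and of histone pre-mRNA processing, none was called and the median was 0.10. The smallest p in that list belonged to Zfp473, a zinc finger protein of the U7 pathway, with 24.4 and 27.1 CPM against 36.3 and 32.8 CPM (log2 fold change 0.43 ± 0.161, adjusted p = 0.197). Its adjusted p was 0.0535 without Tdrd6+/- replicate 2 and 0.373 to 0.56 when one of the other samples was left out.

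Of 8 genes of mRNA decay that act with the cytoplasmic ring, 3 were called lower and none higher, beside 3.78% and 1.02% of all genes tested. Since this list, too, was drawn up with earlier results known, the contrast is a description and not a test. Ddx6, a helicase of processing bodies, had 333 and 322 CPM in Tdrd6+/- samples and 184 and 148 CPM in Tdrd6-/- samples (log2 fold change -0.98 ± 0.136, adjusted p = 0.00015). Both Tdrd6-/- samples were far below both controls. Xrn1, the exonuclease that degrades decapped mRNA from its 5′ end, had 43.7 and 44.3 CPM against 25.1 and 19.5 CPM (log2 fold change -0.98 ± 0.166, adjusted p = 0.0011). Edc3, an enhancer of decapping that itself carries an LSm domain, had 30.8 and 31.1 CPM against 16.6 and 13.8 CPM (log2 fold change -1.03 ± 0.175, adjusted p = 0.00115). In all 3 genes Tdrd6-/- replicate 2 was the lowest sample. Without a filter on low counts the call of Xrn1 was lost (adjusted p = 0.117), while Ddx6 (0.0741) and Edc3 (0.0993) stayed below 0.1. The other 5 genes of the list were not called: Patl1, Dcp1a, Dcp1b, Dcp2 and Edc4, the last of which shared its row with Nrn1l. The median of the list was -0.25.

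Of 7 further proteins with an LSm domain, 3 were called lower, beside 3.78% of all genes tested: Edc3, already counted in the decay list, and the paralogues Atxn2 and Atxn2l, RNA-binding proteins of stress granules. Atxn2 had 95.7 and 98.0 CPM in Tdrd6+/- samples against 66.9 and 52.5 CPM (log2 fold change -0.70 ± 0.144, adjusted p = 0.00725), and its call was lost without Tdrd6-/- replicate 2 (adjusted p = 0.327) and without a filter on low counts (0.208). Atxn2l had 525 and 626 CPM against 442 and 411 CPM (log2 fold change -0.43 ± 0.133, adjusted p = 0.0842), and its call was lost without Tdrd6+/- replicate 2 (0.194), without Tdrd6-/- replicate 1 (0.213), without Tdrd6-/- replicate 2 (0.674), with upper quartile scaling (0.186) and without a filter on low counts (0.387). Lsm12, Lsm14a, Lsm14b and Naa38 were not called. Counts for the RNAs themselves carried little: the U6 row Rnu6 had 10, 2, 5 and 2 counts and was not tested, and Rnu7 lay in a row merged with Atn1 and Grcc10.

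The LSm genes differed widely in how many of their counts were intronic. In the whole libraries there were 48.94 and 38.76 intron counts per 100 gene counts in Tdrd6+/- samples and 39.34 and 28.07 in Tdrd6-/- samples. Lsm7 and Lsm1 stood well above that, with 193, 205, 200 and 163 intron counts per 100 gene counts for Lsm7 (Tdrd6+/- 1 and 2, then Tdrd6-/- 1 and 2) and 176, 137, 145 and 93.4 for Lsm1. Lsm10, with a single intron, had 3.08 to 4.58, and Lsm2 had 4.26 to 5.59, the lowest of the multi-intron genes. These ratios are not corrected for the length of intron counted, so they do not compare splicing between genes. The counted introns of Lsm2 are 35 to 626 bp long, and retained stretches such as 1 of 1294 bp are annotated as exon. Lsm1 has introns of 6439 and 8135 bp. Lsm7 rests on 19 to 41 gene counts per sample, and 3 introns were counted for it. Over all current transcripts its exons sum to 1601 bp and leave 1 gap, against 468 bp in the transcripts used. Part of what was counted as its introns is thus annotated there as exon.

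**Figure D3:**
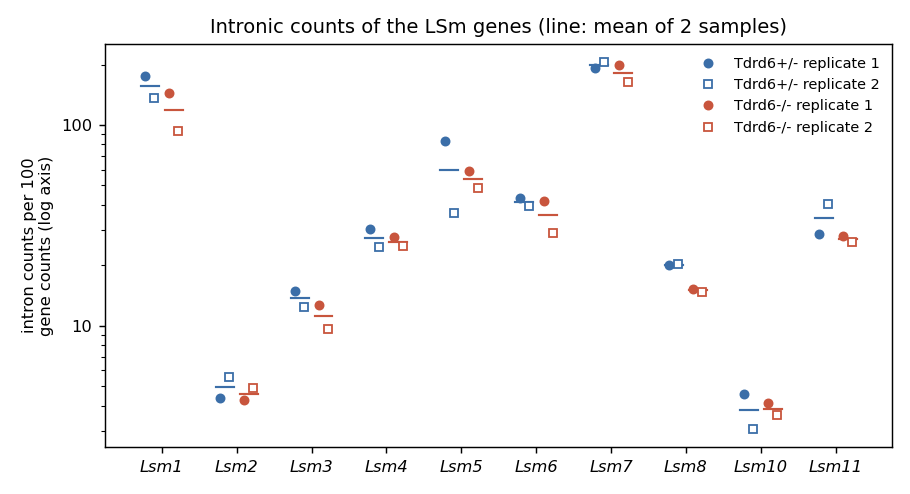
Intron counts per 100 gene counts of each LSm gene (log axis) for the 2 Tdrd6+/- and 2 Tdrd6-/- samples, with a line at the mean of each genotype. Lsm7 and Lsm1 lie highest, Lsm2 and Lsm10 lowest.

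In the test of intronic against gene counts, each kind scaled to its own library size, none of the 10 genes was called, where 1.93% of 15190 genes were (edgeR quasi-likelihood test, FDR 0.1). In simulated data with 2-fold changes this test recovered 26.0% of the changed genes. The median log2 change of the ratio was 0.11 for the members and 0.05 for all genes. Lsm4 had the smallest p: scaled ratios were 0.682 and 0.617 in Tdrd6+/- samples and 0.689 and 0.845 in Tdrd6-/- samples, which did not overlap, and the log2 change was 0.23 ± 0.168 (adjusted p = 0.639). Lsm10 was the other gene without overlap, on 10 to 18 intron counts a sample (log2 change 0.30 ± 0.397). Of all genes tested for the ratio, 23.1% were likewise higher in both Tdrd6-/- samples than in both Tdrd6+/- samples. Lsm8 had 20.0 and 20.3 intron counts per 100 gene counts in Tdrd6+/- samples against 15.3 and 14.8 in Tdrd6-/- samples, but after scaling its ratios overlapped (0.45 and 0.51 against 0.381 and 0.50) and its log2 change was -0.12 ± 0.217 (adjusted p = 0.884). With 1 library size per sample for both kinds, the median over all genes moved from 0.05 to -0.24, and the changes of Lsm2, Lsm4, Lsm5, Lsm6, Lsm7 and Lsm10 moved below 0 with it (Lsm10 to 0.00 after rounding).

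Single introns were then set against the other introns of their gene. Of the 30 introns, 28 had at least 10 counts and another counted intron beside them, 4 passed the filter on mean count (above 85.5) and none was called, where 1.94% of the 28903 introns past the filter were (DESeq2 likelihood ratio test, FDR 0.1). The 4 were the first and last intron of Lsm1, the first of Lsm4 and the second of Lsm6 along the transcript. The first intron of Lsm4, 3097 bp long, had 213 and 185 counts in Tdrd6+/- samples and 233 and 248 in Tdrd6-/- samples, with a log2 usage change of -0.39 ± 0.234 (adjusted p = 0.598). No member intron below the filter had an unadjusted p under 0.05. The smallest there was 0.0809, for the first gap of Lsm2 (35 bp), which held 1 and 1 counts against 9 and 3. In the other members the smallest p of an intron was 0.254 for the first intron of Lsm3, 0.309 for the third of Lsm6, 0.414 for the second of Lsm1, 0.491 for the second of Lsm8, 0.55 for the third of Lsm5, 0.769 for the second of Lsm11 and 0.906 for the third of Lsm7.

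**Figure D4:**
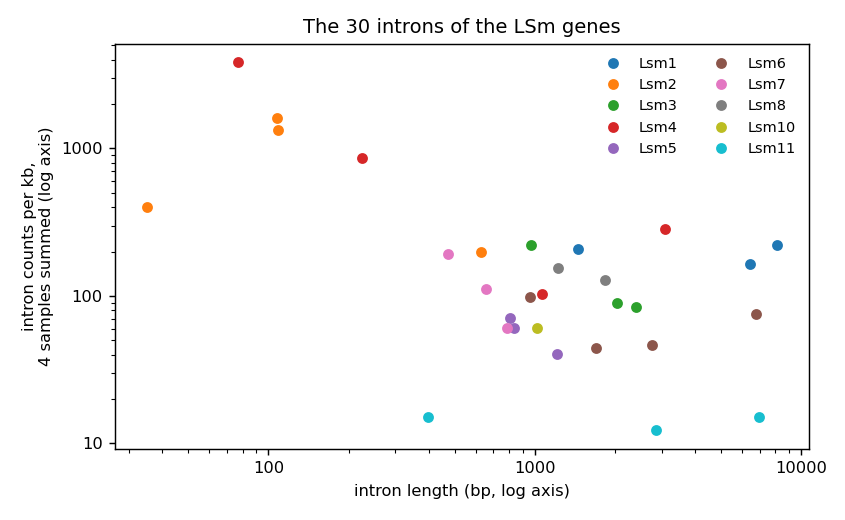
Counts per kb, summed over the 4 samples, against length (both log axes) for the 30 introns of the LSm genes, coloured by gene. The 77-bp intron of Lsm4 lies highest at 3831 counts per kb, the 2 introns of Lsm2 near 100 bp follow, and the 3 introns of Lsm11 lie lowest.

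Counts per kb of intron were high in several short introns of Lsm4 and Lsm2, the genes with the most counts, but not in step with length. The third intron of Lsm4 (77 bp; 70677877 to 70677953) held 3831 counts per kb over the 4 samples, with 63 and 50 counts in Tdrd6+/- samples and 88 and 94 in Tdrd6-/- samples. The last introns of Lsm2 (109 and 108 bp) held 1330 and 1611 counts per kb, while its 35-bp gap, the shortest of the 30, held 400.0. The long introns of Lsm1 (6439 and 8135 bp) held 164.8 and 220.8 counts per kb, and those of Lsm11 12.26 to 15.22. How fragments that reach from an intron into an exon were counted is not given in the sources used here, so densities of the short and the long introns may not be on one footing.

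Junction sequences of Lsm4 and Lsm2 are shown because they mark the alternative sites whose use could be read directly from junction counts. The bases before the junction are in lower case and the first bases of the downstream exon in capitals, 15 of each, from the GENCODE M21 transcripts (mm10, plus strand).
Lsm4 intron of 77 bp, main donor: atctgcacgtcgcggGATGGTGACAAGTTC
Lsm4, donor 18 bases upstream: atcaacctccgggagGATGGTGACAAGTTC
Lsm2, main junction: caagaatgacctgagCATCTGTGGAACCCT
Lsm2, into the 29-bp exon: caagaatgacctgagAACTCACAGATGCTG
Lsm2, out of the 29-bp exon: gcctgcaggcctcagCATCTGTGGAACCCT

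In Lsm4 the main donor was joined in 346 and 407 counts in Tdrd6+/- samples and 475 and 545 in Tdrd6-/- samples, while the upstream donor had 0, 1, 1 and 1. In Lsm2 the main junction had 414 and 460 counts against 551 and 639. The junction into the 29-bp cassette exon had 9 and 14 counts in Tdrd6+/- samples and 15 and 20 in Tdrd6-/- samples, and the junction out of it 0 and 3 against 8 and 6. The counts out of the cassette exon were higher in both Tdrd6-/- samples, but at 17 counts in all they lay under the filter of the test. Of the counts on the junctions shown, the main one took 96.0% to 97.9% in Lsm2 and at least 99.8% in Lsm4.

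Of the 144 exon segments and junctions of the members, 132 had at least 10 counts, 64 passed the filter on mean count (above 53.4) and none was called, where 0.221% of the 147710 features past the filter were (DESeq2 likelihood ratio test, FDR 0.1). In simulated data with 2-fold changes this test recovered 10.5% of the changed features, so the lack of calls says little about the members. The median absolute log2 usage change of the 64 was 0.11, and that of all features past the filter was 0.11. None of the features of Lsm5, Lsm7 or Lsm11 passed the filter. An unadjusted p under 0.05 was reached by 2 features, the end of the second exon of Lsm10 (0.0178) and the last coding exon of Lsm8 (0.031). Several annotated junctions had 0 counts in all 4 samples: 2 junctions of Lsm5 that join the acceptor side at 56702169 to donors farther upstream, the junction within the 3′ UTR of Lsm11, and 2 junctions of Lsm2.

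**Figure D5:**
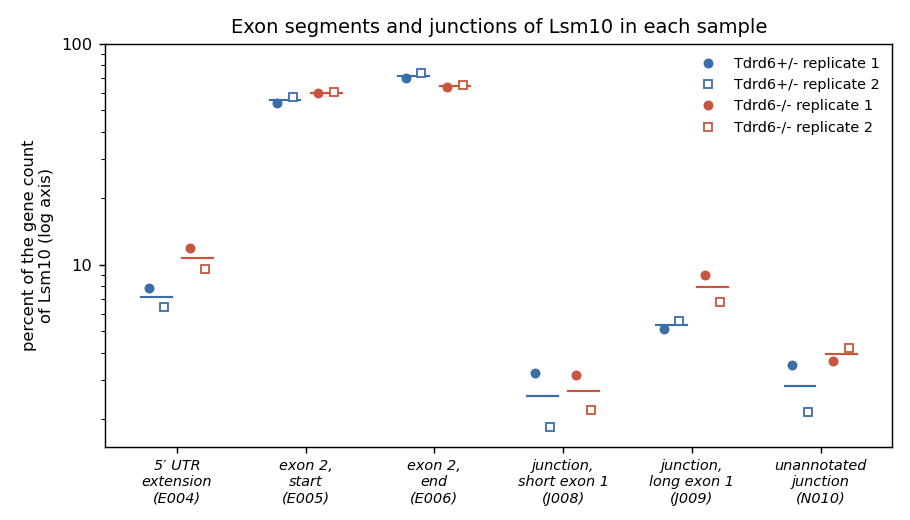
Counts on 3 exon segments and 3 junctions of Lsm10 as percent of its gene count (log axis) for the 2 Tdrd6+/- and 2 Tdrd6-/- samples, with a line at the mean of each genotype. The end of exon 2 lies lower in both Tdrd6-/- samples and was not called. The segment and junction of the long exon 1 lie higher in both, but under the filter on mean count.

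Lsm10 has a short non-coding first exon with 2 annotated ends and a second exon that holds its coding sequence. The end of the second exon (E006; 126098133 to 126098581) took 70.4% and 73.5% of the gene count in Tdrd6+/- samples and 64.2% and 65.0% in Tdrd6-/- samples. The genotypes did not overlap, with a log2 usage change of -0.49 ± 0.206 (adjusted p = 0.888). The stretch that extends the first exon to its downstream end (E004; 126096708 to 126096809, 5′ UTR) took 7.82% and 6.46% against 11.95% and 9.6%. The junction from that downstream end had 19 and 18 counts in Tdrd6+/- samples and 37 and 34 in Tdrd6-/- samples, and the junction from the upstream end 12 and 6 against 13 and 11. Both junctions and the stretch E004 lay below the filter on mean count. An unannotated junction of Lsm10 had 13 and 7 counts against 15 and 21, in the same range as the annotated ones (log2 usage change 0.49 ± 0.599, unadjusted p = 0.412).

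The last exon of Lsm8 (E008; 18853601 to 18854053) took 53.7% and 45.7% of the gene count in Tdrd6+/- samples and 56.1% and 57.3% in Tdrd6-/- samples, a log2 usage change of 0.39 ± 0.179 (adjusted p = 1). Tdrd6+/- replicate 2, which also had the lowest Lsm8 level, was the low sample. An unannotated junction of Lsm4 had 6 and 9 counts in Tdrd6+/- samples and 15 and 16 in Tdrd6-/- samples, beside 661 to 1773 counts in all on its 4 main junctions (log2 usage change 0.57 ± 0.655, unadjusted p = 0.384). In Lsm6, a cassette exon of the 5′ UTR was joined in 103, 72, 94 and 116 counts and skipped in 2, 0, 0 and 4, so that inclusion prevailed in every sample. In Lsm5 the junction with the smallest p (J015; 56702169 to 56703005) fell short of the filter, with 28 and 25 counts in Tdrd6+/- samples, or 43.1% and 39.7% of the gene count, and 22 and 24 in Tdrd6-/- samples, or 31.0% and 30.8% (log2 usage change -0.66 ± 0.484, unadjusted p = 0.172).

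In the remaining members the smallest unadjusted p of an exon segment or junction ran from 0.071 (Lsm2) to 0.31 (Lsm11) in the DESeq2 likelihood ratio test. Except for that of Lsm1, these features lay under the filter on mean count and had no adjusted p. For Lsm1 it was the last junction (J007), with 69 and 72 counts against 102 and 88. For Lsm6 it was the far end of the long 3′ UTR (E001), with 8.26% and 8.01% of the gene count in Tdrd6+/- samples and 6.57% and 4.92% in Tdrd6-/- samples. For Lsm3 and Lsm4 it was a segment found only in transcripts with a retained intron, with a share of the gene count that was lower in both Tdrd6-/- samples: 2.07% and 1.45% against 1.34% and 0.726% in Lsm3 (E005), and 1.34% and 1.70% against 0.621% and 1.00% in Lsm4 (E004). For Lsm2 it was an 8-bp segment (E004) with 1 and 1 counts against 8 and 5, for Lsm11 a segment of the 3′ UTR (E002) with 12 and 11 against 11 and 9, and for Lsm7 the middle junction (J006) with 3 and 0 against 6 and 3. Other segments found only in transcripts with a retained intron were mixed. The share was lower in both Tdrd6-/- samples in Lsm2 E011 (5.85% and 5.68% against 4.89% and 4.99%). It was also lower in both in Lsm3 E007 (1.68% and 1.06% against 0.711% and 1.03%). The same held for Lsm8 E004 (3.90% and 5.08% against 3.59% and 1.88%) and E009 (8.31% and 9.47% against 7.62% and 5.89%). In Lsm5 (E007) it was higher in both (12.3% and 17.5% against 18.3% and 21.8%). The genotypes overlapped in Lsm8 E006, Lsm6 E006 and Lsm2 E001, E014, E015 and E017. None of these was called, and how often all features separate in this way was not counted. These shares were not scaled for the intronic share of each library.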

How the data were processed

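Raw read counts from 2 Tdrd6-/- and 2 Tdrd6+/- samples were used. Per the paper, the authors aligned paired reads with GSNAP to mm10 using Ensembl 75. The submitters' processing notes name bcl2fastq 1.8.4, and the program that counted reads is not given in the sources used here. The deposited counts are whole, not normalized, and cover genes, exon segments, annotated and unannotated junctions, and introns. Overlapping genes had been merged into shared rows, and the strand setting of the counting is not given in the sources used here, although the library kit marks strand. The deposited rows carry no coordinates. Exon segments, junctions and introns were therefore placed by rebuilding them from the GENCODE M21 transcripts with identifiers below 190000. This gave the deposited number of all 3 for 10 of 10 members and for 88.6% of all genes, and exon lengths came from the same transcripts.

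Expression was tested with edgeR 4.0.16 (quasi-likelihood, TMM scaling, filterByExpr), as were intronic against gene counts (interaction of kind of count and genotype, at least 10 counts of each kind). Usage of each intron, and of each exon segment or junction, was tested against the rest of its gene with DESeq2 1.42.0 (R 4.3.3), in a model of the DEXSeq and JunctionSeq type with sample, feature and feature by genotype terms, at least 10 counts, and independent filtering on mean count. Errors of fold changes are standard errors. The call threshold was an FDR of 0.1 over all features tested. In simulated data with 200 features changed 2-fold and a dispersion of 0.02, false calls made up 7.09% of calls for expression over 16555 genes. For the intronic ratio they made up 5.45%. In the usage tests, on 2500 genes each, calls in genes without a changed feature made up 3.94% for introns and 12.5% for exon segments and junctions. Calls on unchanged features of a changed gene were not counted there as false. The changed usage features were drawn only from those above a minimum mean count. Recovery was 65.5%, 26.0%, 55.0% and 10.5% in that order. Gene-wise dispersions were estimated in 1 iteration. With the 10 iterations of the DEXSeq package 50.6% and 84.8% of simulated usage calls lay in genes without a changed feature. The setting of 10 iterations was kept only as an alternative, chosen after the data had been seen.

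The members, partner lists and marker lists were chosen with earlier results of these data known. All 10 members are named, with their features of smallest p and their unannotated junctions, and of each partner list the genes called and the gene of smallest p. No source gives the number of animals behind a replicate beyond the minimum of 4 pooled mice. Levels carry counting error as well as the spread between pools. Alternatives were another tool, scaling, count minimum, merged genes kept, a replicate block and leaving out each sample.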

Additional observations from a re-analysis of the deposited data

How the results depend on the processing

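The counts of members called (0 of 10 in both gene tests, 0 features in both usage tests) held under every alternative run except 1: leaving out single samples gave 0 to 1 member for gene expression, Lsm8 being called without Tdrd6+/- replicate 1. The place of each member in the level order held without TMM and without any single sample, but 1 of 10 kept its place without length correction and 6 with the exon length of all current transcripts. No source says that replicate numbers pair the samples, and deviations of same-numbered samples correlated at -0.107 over 12347 genes and 0.00365 over 74693 introns. With a replicate block 0 members were called in each of the 4 tests, while calls over all features went from 794 to 1046 for genes, from 293 to 280 for the ratio, from 561 to 881 for introns and from 327 to 306 for exon segments and junctions. With the crossed pairing, added after the data were seen, 1175 genes were called.

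Counts over all features moved with the setting. Without a low-count filter 75 genes were called; leaving out single samples gave 236 genes (without Tdrd6-/- replicate 2) to 1880 (without Tdrd6+/- replicate 2), 19 ratios (without Tdrd6+/- replicate 1) to 988 (without Tdrd6-/- replicate 1), 4 introns (without Tdrd6+/- replicate 1) to 1175 (without Tdrd6-/- replicate 1) and 51 exon segments and junctions (without Tdrd6-/- replicate 2) to 763 (without Tdrd6+/- replicate 2). With 10 dispersion iterations 1855 introns and 1978 exon segments and junctions were called, and with edgeR's usage test 2 and 81. The DESeq2 likelihood ratio test called 143 ratios. The cause was not tested.

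The log2 fold change of Lsm5 turned to 0.04 with upper quartile scaling and 0.01 without a filter. With 1 library size per sample, log2 ratio changes turned to -0.12 (Lsm2), -0.06 (Lsm4), -0.11 (Lsm5), -0.24 (Lsm6), -0.15 (Lsm7) and 0 (Lsm10). Leaving out single samples, the log2 fold change ranged from -0.16 to 0.03 for Lsm1, -0.08 to 0.05 for Lsm5, -0.16 to 0.32 for Lsm6, -0.16 to 0.60 for Lsm7, 0.04 to 0.57 for Lsm8 and -0.08 to 0.46 for Lsm11. The log2 ratio change ranged from -0.15 to 0.49 for Lsm2, -0.06 to 0.03 for Lsm3, -0.26 to 0.76 for Lsm5, -0.32 to 0.08 for Lsm8 and -0.38 to 0.28 for Lsm11. The usage change ranged from -0.24 to 0.32 for the third intron of Lsm7 and from -0.61 to 0.21 for the second of Lsm11. Depth limited most what could be said of Lsm5, Lsm7 and Lsm11, whose introns, exon segments and junctions all lay below the filters on mean count.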
